A study of Mus musculus with 6 samples.

Results

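The 7 genes described here encode cytokines that start or restrain inflammation, and they were taken by symbol from a table of 23366 genes. They are Il1a, Il1b, Il18 and Il33, ligands of the interleukin-1 family; Il1rn, the antagonist that blocks the interleukin-1 receptor; Il6; and Tnf. All 7 symbols were found in the table. Poly(A) RNA from the cortex of 6 C57BL/6 mice was sequenced, with 1 library per mouse and 75 bp paired-end reads. Mice A4, A5 and A6 (microglia-depleted) were CX3CR1-CreERT2+/- iDTR+/- animals that received tamoxifen and then diphtheria toxin, and their cortex was taken 10 days after depletion. Mice A1, A2 and A3 (control) were littermate CX3CR1-CreERT2+/- animals without iDTR, and mice of both genotypes received tamoxifen. Whether the control mice also received diphtheria toxin is not given in the sources used here, so the toxin itself and the loss of microglia cannot be told apart. The Cre recombinase was driven by the CX3CR1 promoter, which is also active in circulating monocytes, and the study waited for these to be replaced before giving the toxin. Age in weeks is not given in the sources used here.

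Interleukin-1 alpha and interleukin-1 beta bind the same receptor, Il1r1 with its partner Il1rap, and signal through Myd88 to NF-kB. Interleukin-1 beta and interleukin-18 are made as precursors that caspase-1 cleaves in an inflammasome, whereas interleukin-33 is stored in the nucleus, chiefly of oligodendrocytes and astrocytes in the brain, and is released when cells are damaged. Tumor necrosis factor acts on Tnfrsf1a and Tnfrsf1b, and interleukin-6 acts on Il6ra with the shared subunit Il6st, which activates Stat3.

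The 7 genes fell into 2 sets by level. Il18 and Il33 were well above 0 in every mouse, while Il1a, Il1b, Il1rn, Il6 and Tnf were near 0, at or below 0.65 FPKM in every mouse. FPKM is the number of sequenced fragments per kilobase of transcript, scaled to the size of the library, so levels of different genes can be set side by side. No cytokine of the 7 differed between groups at an adjusted p-value under 0.1 (limma on log2(FPKM + 1), Benjamini-Hochberg adjustment over 14385 genes whose mean reached 0.5 FPKM). Only 2 of the 7, Il18 and Il33, passed this filter on low values, and 5 were under it. Of all genes tested, 4 (0.0278%) passed the threshold, so 0 of 2 is what most pairs of genes would give. The study's own test, run with DESeq on raw counts at the same threshold, called many more genes. Few calls in this fit therefore do not mean that few genes differed. In whole tissue, fewer cells of a type and less RNA per cell cannot be told apart.

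The number of fragments behind the values was estimated from the spacing of low FPKM values and ran from 14.46 to 20.72 M in control mice, against 13.74, 3.52 and 11.24 M in A4, A5 and A6. By this estimate A5 was 5.89 times shallower than the deepest library. Multiples of the A5 estimate fit nearly as well, so A5 may be deeper, and its fragment counts and counting intervals below are uncertain. In A5 7144 genes were listed at 0, although A6 came close with 6849. A4 stood apart from the other depleted mice in genes of gliosis, with 300.31 FPKM of Gfap, the astrocyte filament gene, against 108.51 and 120.13 in A5 and A6. Results for Il18 and Il33 are therefore also given without A4 or A5. The depleted label refers to the treatment and not to the marker level at day 10: Cx3cr1 was at 4.42 ± 0.388 FPKM in control and 4.52 ± 0.514 in depleted mice (SD, n = 3), and of 17 microglial markers 13 had a higher and 4 a lower mean log2 value in depleted mice, with 0 past the test. P2ry12, a purinergic receptor gene of resting microglia that was named after its values were seen, and Fcrls were lower in every depleted than in every control mouse. Their log2 fold changes were -0.35 (limma adjusted p = 0.390) and -0.90 (limma adjusted p = 0.370). Another 5 of the 17 markers were higher in every depleted than in every control mouse. Over all genes tested, 2531 (17.6%) had groups that did not overlap in either direction.

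The promoters of the 7 genes differ in a short sequence feature. RefSeq promoters (GRCm38.p6) were found for all 7 genes, with 10 starts in all. The exact letters TATAAA, the core of a TATA box, were searched on the gene's strand between 40 and 20 bases before each start. They occurred in 655 of 32851 mouse promoters (1.99%) and at 4 of the 10 starts, those of Il1a, Il1b, Tnf and the second of the 2 Il33 starts. The 50 bases before the start are shown for these, and for Il18 and Il6, in which the letters are absent from that window; capitals mark TATAAA.
Il1a (chr2:129309973-129310022, minus strand): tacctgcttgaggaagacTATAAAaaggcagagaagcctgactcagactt
Il1b (chr2:129371140-129371189, minus strand): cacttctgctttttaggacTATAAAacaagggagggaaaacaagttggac
Tnf (chr17:35202008-35202057, minus strand): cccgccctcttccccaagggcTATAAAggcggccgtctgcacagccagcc
Il33, second start (chr19:29945740-29945789, plus strand): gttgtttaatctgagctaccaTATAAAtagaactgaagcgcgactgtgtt
Il18 (chr9:50554650-50554699, plus strand): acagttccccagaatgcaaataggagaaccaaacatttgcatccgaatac
Il6 (chr5:30013064-30013113, plus strand): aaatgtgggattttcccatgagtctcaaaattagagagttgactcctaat
The 3 genes with a single start that holds these letters, Il1a, Il1b and Tnf, all belonged to the low set. Il6 and the 3 starts of Il1rn, also low, did not hold them. A match of letters is a description of the sequence, and which Il33 start was used in these mice was not tested.

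Il33 had the highest level of the 7. Control mice A1, A2 and A3 had 23.45, 24.92 and 24.08 FPKM, and depleted mice A4, A5 and A6 had 16.23, 24.45 and 22.15 FPKM. A4 was lowest and A6 also lay below every control mouse, while A5 lay within the control range, so the groups overlapped. The means were 24.15 ± 0.738 FPKM in control and 20.94 ± 4.24 in depleted mice (SD, n = 3), and averaged over the 6 mice Il33 lay above 74.3% of the genes tested. The log2 fold change was -0.22 with a standard error of 0.14 (limma adjusted p = 0.610), with a 95% interval from -0.53 to 0.10. An exact permutation test (two-sided, on mean FPKM) gave p = 0.3, where 0.1 is the smallest p that 3 mice against 3 can give.

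The difference in Il33 rested on A4, whose 16.23 FPKM were 67.2% of the control mean. The counting interval of that library (95%, Poisson) ran from 14.9 to 17.6 FPKM and that of the lowest control mouse, A1, from 21.9 to 25.1, so these libraries differed by more than counting error, which is the only error that such intervals cover. Without A4 the log2 fold change was -0.05 (limma adjusted p = 0.815). Without A5, the shallowest library by the uncertain depth estimate, it was -0.33 (limma adjusted p = 0.325).

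Il18 was the other abundant member. It stood at 20.69, 17.93 and 19.94 FPKM in the control mice and at 18.55, 16.11 and 19.22 FPKM in the depleted mice, in the order A1 to A6. The groups overlapped, and the lowest value came from A5. By the uncertain depth estimate of A5, about 40 fragments stood behind that value, with a counting interval from 11.6 to 22.0 FPKM. The means were 19.5 ± 1.43 FPKM in control and 18.0 ± 1.64 in depleted mice (SD, n = 3), and Il18 lay above 69.6% of the genes tested. The log2 fold change was -0.12 with a standard error of 0.099 (limma adjusted p = 0.700) and a 95% interval from -0.34 to 0.11. The exact permutation test gave p = 0.3. On the linear scale of FPKM + 1 the intervals correspond to depleted levels of 0.789 to 1.08 times control for Il18 and 0.692 to 1.07 times control for Il33, so larger differences lie outside them and smaller ones could not be resolved. Without A5 the log2 fold change of Il18 was -0.04, and without A4 it was -0.14.

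**Figure D1:**
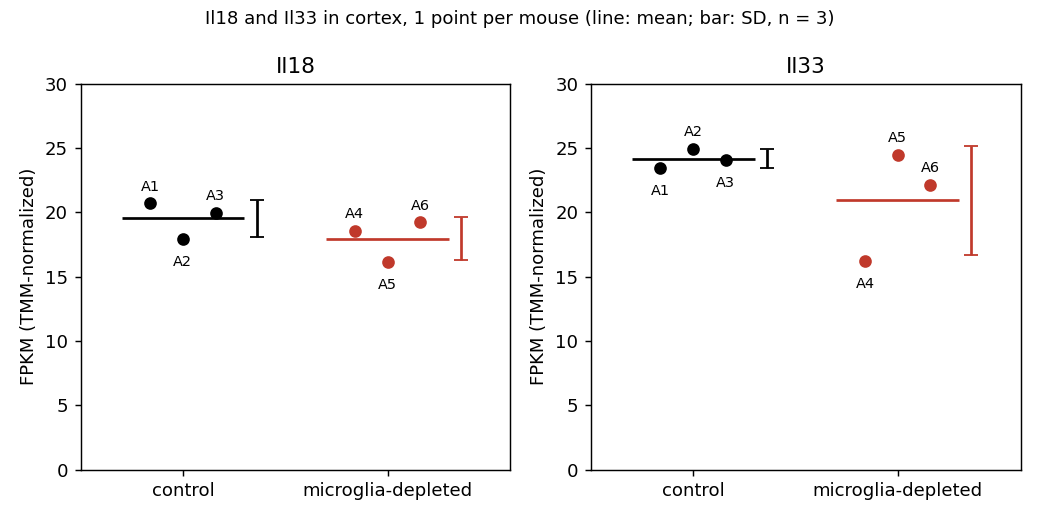
Il18 and Il33 levels in FPKM (vertical axis, from 0) in the 3 control mice (black) and the 3 microglia-depleted mice (red), 1 point per mouse, with the group mean as a line and the SD as a bar. For Il18 the groups overlap; for Il33 A4 lies at 16.23 FPKM, below the other 5 mice, A6 lies just below the control mice, and A5 lies within the control range.

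The mice ranked differently for Il33 and for Il18. The ratio of Il33 to Il18 FPKM was 1.13, 1.39 and 1.21 in the control mice, and 0.875, 1.52 and 1.15 in the depleted mice. A4 was the only mouse with less Il33 than Il18. Over the 6 mice Pearson's r between them on the log2 scale was -0.084, given as a description. The genes whose pattern was most like that of Il33 were Adarb1, an adenosine deaminase that edits RNA (r = 0.999, n = 6), Syndig1, a synaptic membrane protein gene (r = 0.998), and B3gat1, a glucuronyltransferase gene (r = 0.998). All 3 were lowest in A4, with 32.12 FPKM of Adarb1 there against 42.11 to 46.84 in the other mice, and 681 genes (4.73%) reached an r of 0.9 with Il33. For Il18 the nearest genes were Pmf1, a kinetochore gene (r = 0.996), Gm6225 (r = 0.991) and Ptch1, the hedgehog receptor (r = 0.985), and 105 genes (0.73%) reached 0.9. Each of these 3 was lowest in A5, the shallowest library by the uncertain depth estimate. The 6 points share their libraries, and these values are a description.

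Oligodendrocyte markers and Il33 were both lowest in A4, but A5 and A6 ranked differently for them. All 16 oligodendrocyte markers had a lower mean log2 value in depleted mice, from Mal, a myelin membrane gene, at a log2 fold change of -0.01 to Ugt8a, which makes a myelin lipid, at -0.70; 0 of 16 passed the test, and their median was -0.24 against -0.01 over all genes tested. Of the 16, 5 were lower with an unadjusted p under 0.05 (limma), and 6 were lower in every depleted than in every control mouse. Over all genes tested, 10.5% had such a p and 17.6% had groups without overlap, counting both directions. The summed level of the 16 markers was 3220 to 3507 FPKM in control and 2846 to 2943 in depleted mice, and no defining marker was at 0. By mouse, the median deviation of these markers from the control mean came to -0.45 for A4, -0.24 for A5 and -0.04 for A6, whereas for Il33 A5 lay within the control range and A6 below it. Of 13 astrocyte markers 9 were lower and 4 higher, with a median of -0.16, from Slc4a4, a bicarbonate transporter gene, at -0.27 to Gfap at 1.00, and their sum ran from 1492 to 1679 FPKM in control and 1477 to 1586 in depleted mice. Groups did not overlap for 4 lower and 2 higher astrocyte markers. Neuronal markers had a median of -0.04, with 6 of 15 higher and 9 lower, and 1 of each without overlap. Their extremes were Eno2, a neuronal enolase gene, at 0.09 and Neurod6, a cortical transcription factor gene, at -0.32, and their sum was 3710 to 4117 FPKM in control and 3550 to 3931 in depleted mice. The part of these markers in the level of Il33 was not tested.

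**Figure D2:**
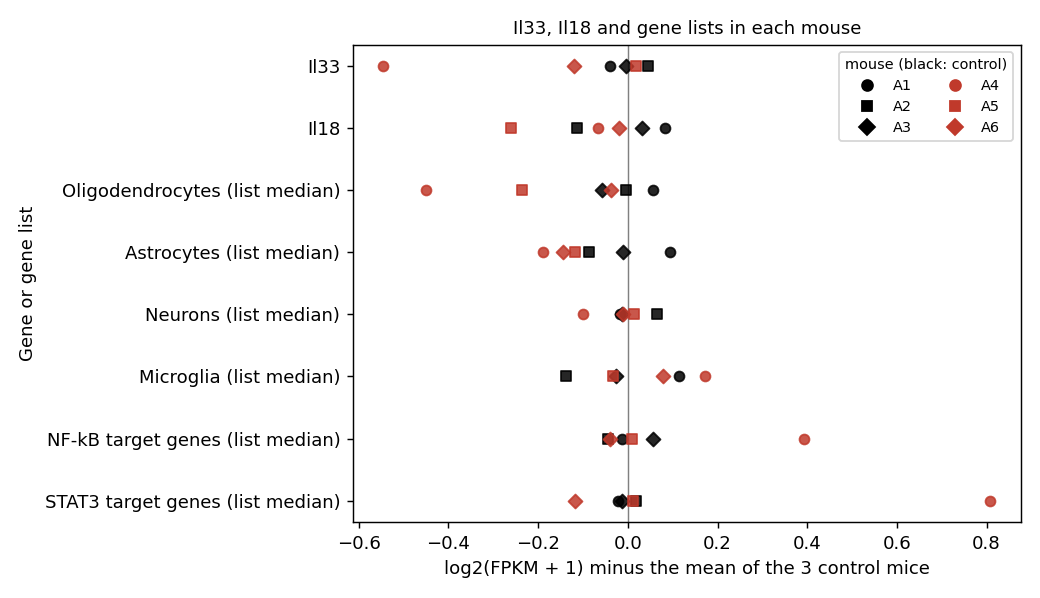
The difference of each mouse from the mean of the 3 control mice on the log2(FPKM + 1) scale (horizontal axis), for Il33, Il18 and the median gene of 6 lists (vertical axis); black symbols are control mice and red symbols depleted mice. A4 lies lowest for Il33 and for the oligodendrocyte markers (-0.45) and highest for the NF-kB (0.39) and STAT3 (0.81) target genes, whereas Il18 is lowest in A5.

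The other 5 members were close to the limit of detection. Tnf was at 0 in all 6 mice. A level of 3 fragments, which a count of 0 still allows, was worth 0.127, 0.088 and 0.101 FPKM in the control libraries and 0.133, 0.52 and 0.163 FPKM in the depleted ones (A4, A5, A6). A Tnf level below these values could thus still read 0 in a single library. Zeros in all 6 libraries together leave room for less than any single library does. Lta and Ltb, cytokine genes that lie beside Tnf in the genome and were picked after their values were seen, reached at most 0.38 FPKM, in A6, and 1.45 FPKM, in A4. Il6 was at 0.19 FPKM in A1, at 0.20 in A4 and at 0 in the other 4 mice. Each of the values above 0 stood for about 3 fragments, and the exact permutation p was 1.

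Il1a was listed at 0.35, 0.32 and 0.05 FPKM for the control mice, and at 0.55, 0 and 0.45 FPKM for the depleted mice. The values correspond to about 10, 13 and 2 fragments in control and 15, 0 and 10 in depleted mice, with A3 and A5 low and the groups overlapping. The means were 0.240 ± 0.165 and 0.333 ± 0.293 FPKM (SD, n = 3; exact permutation p = 0.6). Of the 1974 exon bases of Il1a, 222 (11.2%) are shared with Gm14023 on the opposite strand. Whether reads were counted by strand is not given in the sources used here, so reads of the overlap cannot be told apart. Gm14023 was at 0.22, 0.25 and 0.03 FPKM in control mice and at 0 in the 3 depleted mice.

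Il1b was the only member whose values were all higher in depleted than in control mice. The control mice had 0.10, 0.37 and 0 FPKM (A1, A2, A3), and the depleted mice had 0.65, 0.42 and 0.40 FPKM (A4, A5, A6). Behind these stood about 2, 10 and 0 fragments in control and 12, 2 and 6 in depleted mice, and the gap between the groups, from A2 to A6, was within counting error. The counting interval of A2 ran from 0.171 to 0.655 FPKM, that of A6 from 0.145 to 0.857 and that of A5 from 0.051 to 1.51. The means were 0.157 ± 0.191 FPKM in control and 0.490 ± 0.139 in depleted mice (SD, n = 3), and the exact permutation p was 0.1, the smallest possible. When no filter was applied, the log2 fold change was 0.37 with a standard error of 0.13 (limma adjusted p = 0.485). Among the 4530 genes under the filter that were above 0 in at least 1 mouse, 122 (2.69%) were higher in every depleted than in every control mouse. Il1b shares 25 exon bases with Il1bos on the opposite strand.

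Il1rn, the antagonist, had the opposite order at a still lower level. The control mice were at 0.03, 0.02 and 0.07 FPKM, and all 3 depleted mice were at 0. These stand for about 1, 1 and 3 fragments in control mice, while 3 fragments would have been 0.11, 0.429 and 0.134 FPKM in A4, A5 and A6, above every control value. Each depleted library taken singly could therefore read 0 at the control level. The exact permutation p was 0.1, and 201 of the 4530 genes under the filter (4.44%) were likewise lower in every depleted than in every control mouse.

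**Figure D3:**
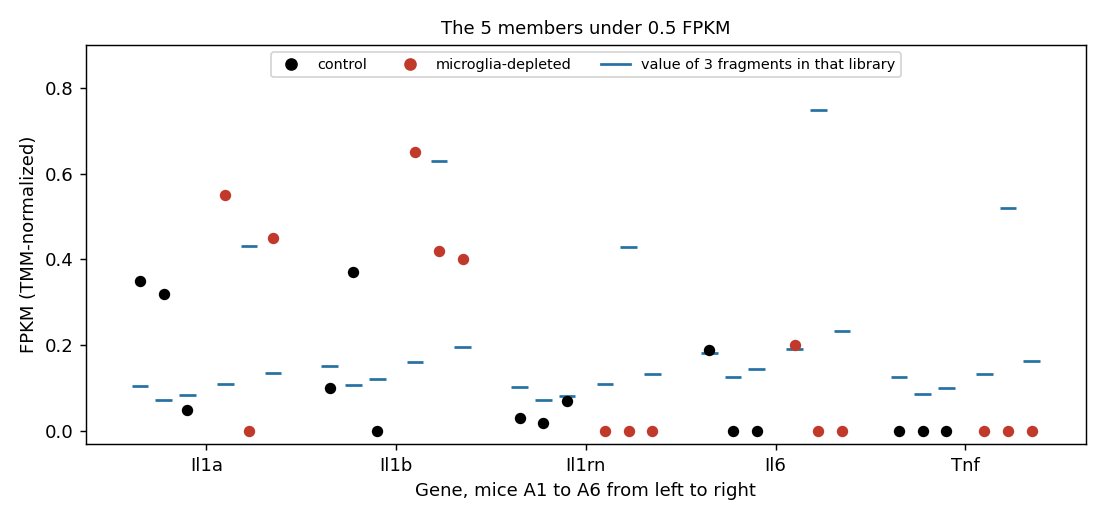
FPKM (vertical axis) of the 5 members under 0.5 FPKM on average, with mice A1 to A6 from left to right within each gene; black points are control mice, red points depleted mice, and each blue line marks what 3 fragments are worth in that library. Tnf is at 0 in every mouse, and Il1rn and Il6 lie near or below the lines. For Il1b the A5 value of 0.42 FPKM lies below its line while A4 and A6 lie above theirs. The lines of A5 rest on an uncertain depth and would be lower if A5 were deeper.

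Of the 5 other ligands of the interleukin-1 family, only Il1f9 (Il36g, interleukin-36 gamma) passed the filter. It was at 1.42, 1.10 and 1.08 FPKM in control and at 1.66, 2.03 and 3.47 in A4, A5 and A6, without overlap. The log2 fold change was 0.59 with a standard error of 0.21, and it did not pass the threshold (limma adjusted p = 0.406). Without A6, the highest mouse, it was 0.37. Over all genes tested, 1515 (10.5%) had an unadjusted p under 0.05 and 2531 (17.6%) had groups that did not overlap, so such values were common in the table. Il1f6, Il1f8 and Il1f10 were at 0 in all 6 mice, and Il1f5, the interleukin-36 receptor antagonist gene, was above 0 in A2 (0.11 FPKM) and A6 (0.45 FPKM). Of 30 further cytokine genes, 13 passed the filter, 9 higher and 4 lower with 0 called, and 5 were at 0 in every mouse. The largest log2 fold change among them was 0.46, for Cntf, ciliary neurotrophic factor, and the smallest was -0.23, for Mif, macrophage migration inhibitory factor (limma adjusted p = 0.391), at 234 ± 11.4 FPKM in control and 199 ± 13.2 in depleted mice (SD, n = 3).

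The receptors of these cytokines were measured at low to moderate levels, and none passed the test. Of 13 receptors and soluble regulators 7 passed the filter, 3 higher and 4 lower, with log2 fold changes from -0.12 to 0.08, 0 of 7 called, 0 with an unadjusted p under 0.05 and 0 without overlap. Il6st, the signal subunit for interleukin-6, had the highest level, at 13.99 ± 1.08 FPKM in control and 12.86 ± 1.12 in depleted mice (SD, n = 3). Il1rap was at 7.78 ± 0.668 FPKM in control and 7.11 ± 1.07 in depleted mice, and its partner Il1r1 at 1.02 ± 0.231 and 1.04 ± 0.193. Il1r2, a decoy receptor for interleukin-1, ranged from 0.04 to 0.43 FPKM over the 6 mice.

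The ligand-binding chains for interleukin-33 and interleukin-18 were near 0. Il1rl1 (ST2), which binds interleukin-33 and pairs with Il1rap, was at most 0.07 FPKM, and Il18r1 and Il18rap, the chains of the interleukin-18 receptor, were at most 0.07 and 0.21 FPKM in any mouse. Il18bp, the soluble protein that binds interleukin-18, was higher than these, at 3.91, 3.96 and 4.52 FPKM in control and 5.96, 4.58 and 3.09 in A4, A5 and A6, with overlapping groups. Tnfrsf1a, the main receptor of tumor necrosis factor, was at 4.06 ± 0.631 FPKM in control and 4.52 ± 2.03 in depleted mice, with its highest value, 6.79, in A4. Tnfrsf1b was at 0.670 ± 0.0721 and 0.637 ± 0.274 FPKM, Il6ra at 0.973 ± 0.167 and 0.833 ± 0.305 (SD, n = 3), and Sigirr, an inhibitory receptor of the family, was at most 0.56 FPKM.

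Among 16 genes for cleavage and release of the ligands, 12 passed the filter, 9 higher and 3 lower, with a median log2 fold change of 0.06. Casp1, which cleaves the precursors of interleukin-1 beta and interleukin-18, had the largest value. It was at 1.65, 1.29 and 1.61 FPKM in control and at 2.62, 2.03 and 2.52 in A4, A5 and A6, without overlap. Its log2 fold change was 0.43 with a standard error of 0.14 (limma adjusted p = 0.396), and the value without A4 was 0.38. Nlrp1a, an inflammasome sensor, and P2rx7, the ATP-gated channel upstream of Nlrp3, were named after their values were seen; they also did not overlap between groups, with log2 fold changes of 0.40 (limma adjusted p = 0.438) and 0.41 (limma adjusted p = 0.484). Without A4 the value of P2rx7 was 0.22 and that of Nlrp1a 0.45. None of these 3 passed the threshold. They were the only genes among the 12 whose groups did not overlap, against 17.6% of all genes tested. Casp8, a caspase of cell death, had the smallest value, at -0.08. The other lower genes were the inflammasome genes Aim2 and Nek7, at -0.04 and -0.02, named after their values were seen.

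**Figure D4:**
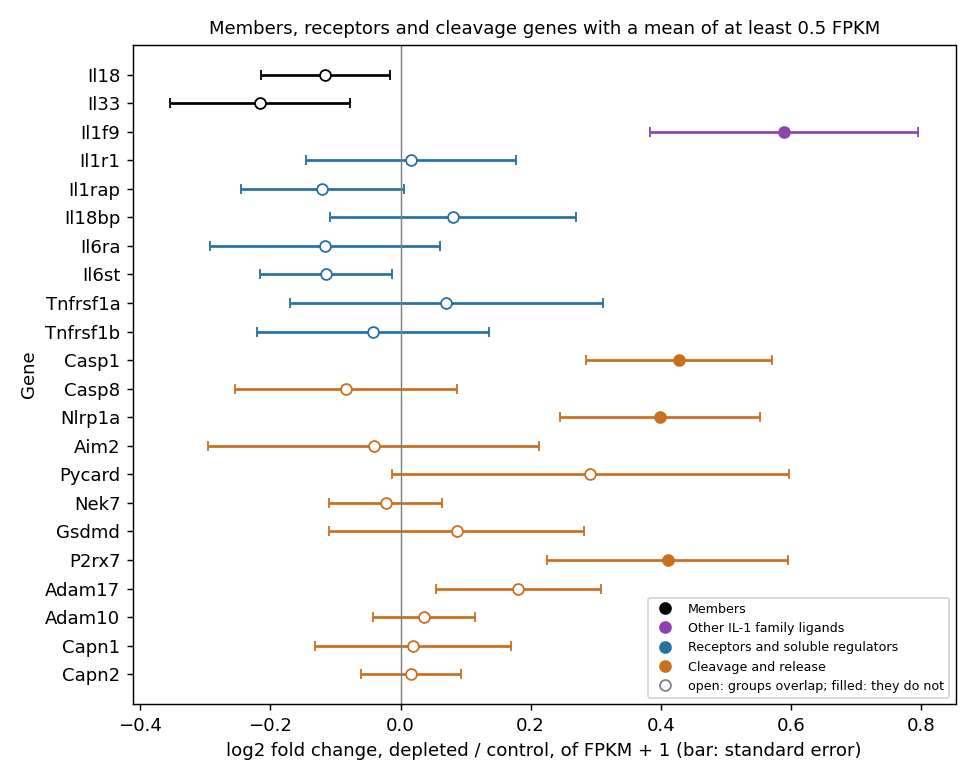
Log2 fold change of depleted against control mice on the FPKM + 1 scale (horizontal axis) with its standard error, for the tested members, other interleukin-1 ligands, receptors and cleavage genes (vertical axis). Filled points are genes whose groups do not overlap; they are Il1f9 (0.59), Casp1 (0.43), P2rx7 (0.41) and Nlrp1a (0.40), whereas Il18, Il33 and all 7 receptors have overlapping groups.

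Of 26 signalling genes below the receptors, 24 passed the filter, 14 higher and 10 lower, with a median of 0.03 and 0 called. Relb, an NF-kB subunit, was at 2.83, 2.43 and 3.12 FPKM in control and 6.09, 3.55 and 4.27 in A4, A5 and A6, with a log2 fold change of 0.55 (limma adjusted p = 0.388). The groups did not overlap, and the highest value was that of A4. At the other end Rela, the partner subunit of canonical NF-kB, had a log2 fold change of -0.25 (limma adjusted p = 0.618), and Stat3, named after its values were seen, of 0.04.

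By their median, the target genes of the receptors differed mainly in A4. Of 20 tested NF-kB targets 15 were higher and 5 lower, with a median of 0.16 that was -0.03 without A4. The largest was Ccl4, a chemokine gene, at 0, 0 and 0.25 FPKM in control and 3.6, 0.42 and 0.80 in A4, A5 and A6 (log2 fold change 1.08, limma adjusted p = 0.418), and the smallest was Nfkbiz, an NF-kB cofactor, at -0.23. Of 14 tested STAT3 targets 11 were higher and 3 lower, with a median of 0.19 that was -0.09 without A4. Their extremes were Timp1, a metalloproteinase inhibitor, at 1.00 and Lrg1, a secreted glycoprotein gene, at -0.58. Without A4 the log2 fold changes were 0.57 for Ccl4, 0.54 for Timp1, -0.41 for Nfkbiz and -0.62 for Lrg1, so single genes did not all follow the medians. By mouse, the median deviation from the control mean came to 0.39 for A4, 0.01 for A5 and -0.04 for A6 among NF-kB targets, and 0.81, 0.01 and -0.12 among STAT3 targets. A4 was thus the mouse with the highest median of target genes, the highest Il1a and Il1b and the lowest Il33. In all, the 7 pathway lists held 130 genes, of which 88 were tested, 59 higher and 29 lower, with 0 called. Over all genes tested 6907 were higher and 7478 lower, so these lists leaned more towards higher values. Of the 88, 10 (11.4%) had an unadjusted p under 0.05 (limma), 8 higher and 2 lower, and 15 (17%) had groups that did not overlap. The shares of 11.4% and 17% were close to those of all genes tested.

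Markers of microglia, monocytes and neutrophils, endothelial cells, and choroid plexus and ependyma differed widely in level. Microglial markers, of cells known as a source of Il1a, Il1b and Tnf in the brain, had a median log2 fold change of 0.11, or 0.02 without A4, with Aif1, a cytoskeletal gene of microglia, at 0.74 and Fcrls, a microglial surface protein gene, at -0.90. Their sum was 159 to 193 FPKM in control and 176 to 243 in depleted mice, and no defining marker was at 0. Of the 18 monocyte and neutrophil markers found, 7 passed the filter, 4 higher and 3 lower, from S100a4, a calcium-binding protein gene, at 0.66 to S100a9, a neutrophil granule protein gene, at -0.64. Their sum was 43.0 to 52.9 FPKM in control and 46.3 to 66.8 in depleted mice. Its largest part was Ly6c1, named after its values were seen. This gene was at 23.87, 26.26 and 29.15 FPKM in control and 31.18, 30.29 and 25.63 in A4, A5 and A6. The sum therefore rests largely on Ly6c1 and is no measure of the number of these cells. Ccr2, the defining chemokine receptor of monocytes, was at most 0.24 FPKM in any mouse. Endothelial markers had a median of 0.07, with 8 of 12 higher, from Pecam1, an adhesion molecule gene, at 0.34 to Ocln, a tight junction gene, at -0.14, and summed levels of 58.1 to 63.5 and 62.5 to 66.9 FPKM. Choroid plexus and ependymal markers had the lowest median, -0.37, with 9 of 11 lower. They ran from Dynlrb2, a cilium gene, at 0.09 to Ttr, the transthyretin gene, at -1.91. Their sum was 179.5 to 336 FPKM in control and 56.1 to 82.9 in depleted mice. Most of this sum was Ttr alone, at 172.74, 313.68 and 160.05 FPKM in control and 64.3, 40.92 and 59.89 in A4, A5 and A6. The sum therefore says little about the other markers of this list. The part of any of these cells in the values of the 7 cytokines was not tested.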

How the data were processed

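The authors deposited 1 table of TMM-normalized FPKM, with a row per gene and a column per mouse. The submitters' processing notes name TopHat, RSEM, DESeq and mm9; tool versions are not given in the sources used here. All 6 columns were used. Values were taken to log2(FPKM + 1), a scale that understates changes of low genes, and genes whose mean reached 0.5 FPKM were compared with limma 3.58.1 (eBayes with trend, no covariate) in R 4.3.3, with Benjamini-Hochberg adjustment at 0.1. For single genes an exact permutation test (two-sided) was run on FPKM. The fit was tested on simulated data. Other steps used Python 3.11.15, pandas 2.3.3 and scipy 1.17.1.

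Fragments per library were estimated from the spacing of value times length over 1813 genes with a single transcript of 400 to 1500 bases (GENCODE M21, GRCm38). On 3 simulated libraries the error was at most 0.3%. These held whole fragment counts without TMM scaling, so that error need not hold for the real libraries. Of 15 low member values above 0, 13 lay within 0.25 of a whole fragment. For A5 multiples of the estimate fit nearly as well, so its fragment counts are the least certain. Intervals and floors cover counting error only. Exon overlaps (GENCODE M21) and promoters (RefSeq) were read on GRCm38, not on the mm9 build of the submitters' notes, and only promoter coordinates are printed.

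The members and gene lists were chosen with earlier results of these data known. Named genes were all members, the receptors that bind them, of each other list the tested genes with the largest and smallest log2 fold change, and for each tested member the 3 genes with the highest Pearson r; others are said to be picked after their values were seen, among them Cx3cr1, Ccr2, Gm14023, the other interleukin-1 ligands and Gfap as a sign of gliosis. The mice are separate animals, and the labels give no batch or litter. Alternatives were other pseudocounts, filters, scalings, variance models and thresholds, and leaving out each mouse.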

Additional observations from a re-analysis of the deposited data

How the results depend on the processing

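Il18, Il33 and the genes of the 7 pathway lists stayed short of the threshold of 0.1 under all alternatives run. Genes of the cell type marker lists were not counted in the alternatives. Over 15 refits the log2 fold change stayed negative, from -0.17 to -0.04 for Il18 (limma adjusted p from 0.520 to 0.943) and from -0.33 to -0.05 for Il33 (limma adjusted p from 0.325 to 0.9), with the extremes of Il33 from leaving out A5 and A4. The number of genes called over the whole table was 4. It was 2 with eBayes without trend and 20 with array weights, and from 2 to 29 when each mouse was left out in turn: 2 without A1, 29 without A5 and 8 without A6. The cause was not tested. The difference in mean FPKM of Il1b ran from 0.253 to 0.44, and that of Il1a from -0.015 to 0.26, when each mouse was left out in turn. Other scalings shifted the table's median log2 fold change by -0.0054 to 0.0039. No paired analysis was possible because the control mice carry replicate numbers 1 to 3 and the depleted mice 4 to 6, with none shared. Depth limited Il1a, Il1b, Il1rn, Il6 and Tnf, which rested on 0 to 15 fragments per library.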
